A study of Rattus norvegicus with 10 samples.

Results

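The genes described here control progress through the G1 phase of the cell cycle towards DNA replication. They are the D cyclins Ccnd1, Ccnd2 and Ccnd3, their kinases Cdk4 and Cdk6, and the CDK inhibitors Cdkn1a, Cdkn1b and Cdkn2c. The pocket protein gene Rb1 and Myc complete the set. All probe sets annotated to 1 of these 10 genes were taken, which gave 15 of 31042 probe sets and 10 of 14217 genes measured on the array. Of the 10 genes, 6 are represented by 1 probe set and 4 by several. They were followed in liver RNA of female Harlan Sprague-Dawley rats. Of the 10 arrays, 5 are of rats given indole-3-carbinol (I3C) at 300 mg per kg in corn oil by gavage. The other 5 are of rats given corn oil alone (0 mg per kg). Both groups were treated 5 days per week for 13 weeks per the labels, although the series' design text names a 2-year toxicology study. No age or animal number is given, and the p-values cover only the scatter among these 10 samples, which may be partly technical. The arrays are called vehicle 1 to 5 and dosed 1 to 5.

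D cyclins are the regulatory subunits through which growth signals reach the cell cycle. Bound to CDK4 or CDK6 they phosphorylate the retinoblastoma protein RB1, which then lets go of the E2F transcription factors that drive the genes of DNA replication. Inhibitors of the INK4 family, to which Cdkn2c belongs, bind CDK4 and CDK6 directly, and those of the CIP/KIP family, Cdkn1a and Cdkn1b, bind cyclin-CDK complexes. Most hepatocytes of an adult liver are out of the cycle, and a rise of cyclin D1 is a well-known mark of their return to it after partial hepatectomy. I3C, a compound of cruciferous vegetables whose acid condensation products activate the aryl hydrocarbon receptor, is known in cultured breast cancer cells for a G1 arrest with less CDK6. The comparison asks how the transcripts of this control circuit differ between dosed and vehicle livers.

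The dose left its usual mark: Cyp1a1, a target of the aryl hydrocarbon receptor, lay between 5.13 and 6.08 on the log2 scale in vehicle arrays and between 13.86 and 13.97 in dosed arrays. Vehicle 5 stood apart and received an array weight of 0.24, the lowest of the 10. RNA quality moved with the dose as well. The GAPDH control's 3' signal minus its 5' signal ran from 0.32 to 0.65 in vehicle arrays, the top value being that of vehicle 5, and from 0.16 to 0.29 in dosed arrays (two-sided exact permutation p = 0.00794, which is the lower limit for this design, and adjusted p = 0.0159 over the GAPDH and beta-actin controls). The same measure for beta-actin ran from 1.45 to 1.74 and from 1.17 to 1.53 (exact permutation p = 0.0476, adjusted p = 0.0476). Fits with these measures as a covariate, or without vehicle 5, are given below for the members where they end or add a call or turn a sign, and for the list genes that passed where they end the call. Defining hepatocyte markers such as Alb (15.11 in both groups) and Ttr were near the top of the scale in all arrays.

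Cyclin D1 fell in the dosed livers on all 3 of its probe sets, and the other D cyclins and both kinases did not pass the test. Cdkn1a fell on 1 of 2 probe sets. Of the 15 probe sets 4 were lower and 0 higher at an adjusted p under 0.05 (limma, Benjamini-Hochberg over the 31042 probe sets), where 4.79% of all probe sets passed, 2.30% lower and 2.49% higher. At an unadjusted p under 0.05 there were 6 of the 15, against 16.1% of all probe sets, all 6 of them lower. By gene, 2 of 10 had a probe set past the threshold, against 7.48% of all genes. The 4 passing probe sets are not independent of one another, since 3 measure Ccnd1. The median difference, dosed minus vehicle, was -0.18 over the 15 probe sets and -0.0033 over all probe sets.

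**Figure D1:**
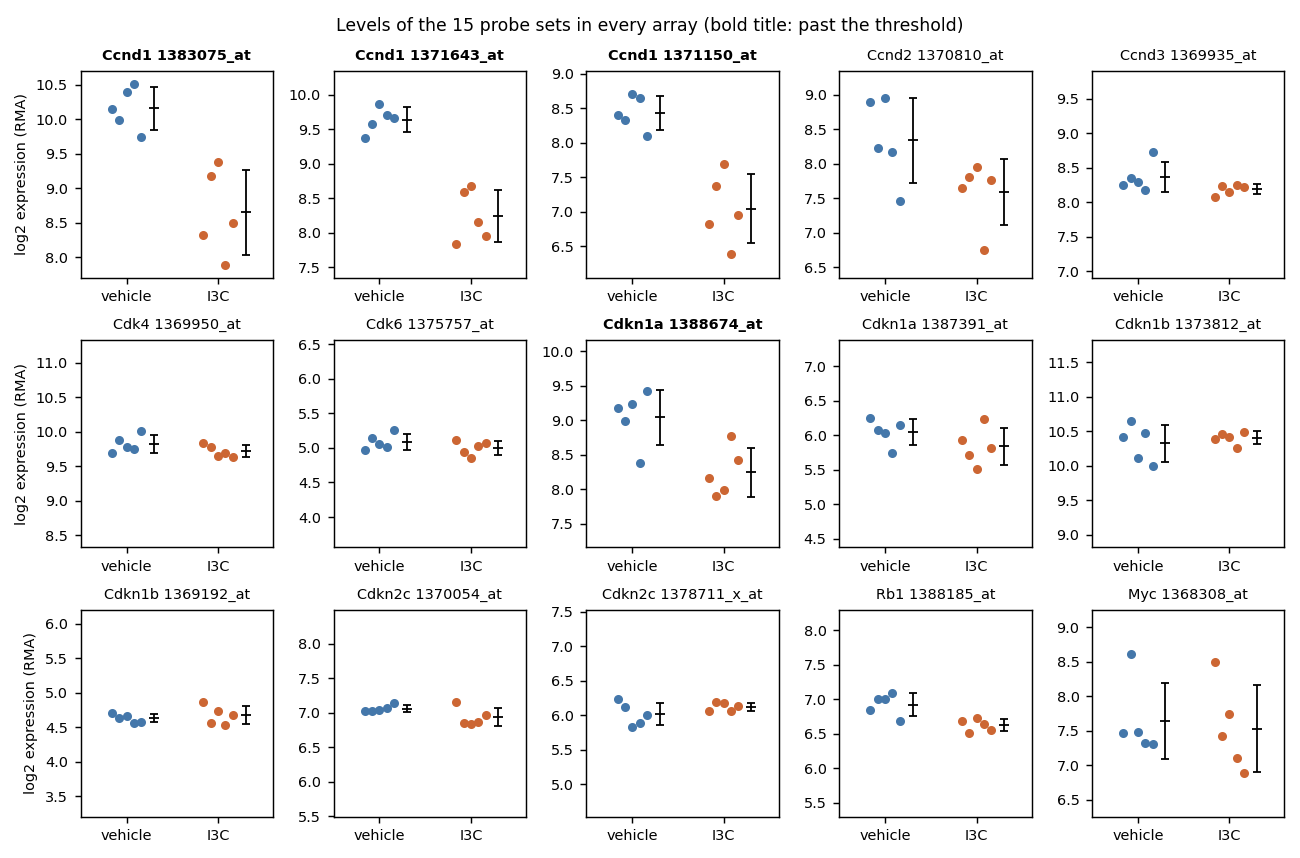
Log2 expression (RMA) of the 15 probe sets in each of 5 vehicle arrays (blue) and 5 dosed arrays (orange), with the mean and SD of each group beside the points; every panel spans 3 log2 units, and a bold title marks a probe set past the threshold. The 3 Ccnd1 panels are the ones in which the groups do not overlap, and 1 high array stands out in each group for Myc.

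Ccnd1 encodes cyclin D1, the D cyclin most tied to hepatocyte growth. Its brightest probe set, 1383075_at, read 10.15, 9.99, 10.40, 10.52 and 9.75 in vehicle 1 to 5 and 8.33, 9.18, 9.38, 7.90 and 8.50 in dosed 1 to 5. Every dosed array was lower than every vehicle array, the gap between the groups being 0.36. The difference was -1.50 ± 0.25 (SE, n = 5 per group, limma adjusted p = 0.00376), a 2.84-fold fall with a 95% interval of 1.95-fold to 4.13-fold.

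The other Ccnd1 probe sets gave nearly the same size. Probe set 1371643_at read 9.37, 9.58, 9.86, 9.71 and 9.66 in vehicle arrays and 7.84, 8.59, 8.68, 8.15 and 7.95 in dosed arrays, a difference of -1.40 ± 0.16 (SE, limma adjusted p = 0.000291), or 2.63-fold. Probe set 1371150_at read 8.40, 8.33, 8.70, 8.65 and 8.11 against 6.83, 7.38, 7.69, 6.39 and 6.95, a difference of -1.39 ± 0.21 (SE, limma adjusted p = 0.00177), or 2.62-fold. The groups did not overlap on any of the 3, whereas over all probe sets 3.07% had every dosed array below every vehicle array and 6.50% were free of overlap in either direction. Of the 48 probe sets that passed and were at least 2-fold lower, 0.155% of all, these were 3. Between the brightest probe set and each of the others the response differed by -0.11 and -0.11 (exact permutation p = 0.635 and 0.135, two-sided, adjusted p = 0.794 and 0.225 over 5 pairs of probe sets of a gene), so that a difference in response between them was not shown.

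The dosed arrays had the larger SD for Ccnd1, a difference in spread that was not tested. It was 0.62 against 0.31 on 1383075_at, 0.38 against 0.18 on 1371643_at and 0.50 against 0.25 on 1371150_at. Dosed 3 and dosed 2 were the highest dosed arrays on all 3 probe sets. Dosed 4 was the lowest on 1383075_at and 1371150_at, and dosed 1 on 1371643_at. All 3 calls held when any 1 array was left out, with differences from -1.69 to -1.31, from -1.50 to -1.29 and from -1.55 to -1.23, and adjusted p no higher than 0.0136, 0.00133 and 0.00684.

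The GAPDH measure and Ccnd1 both separated the groups, so that their shares in the difference cannot be told apart by group alone. The GAPDH difference was 0.22, 0.29, 0.24, 0.16 and 0.24 in dosed 1 to 5, and a relation to Ccnd1 within a group was not tested. With the GAPDH difference in the model the 3 Ccnd1 differences were -1.41 ± 0.43, -1.23 ± 0.26 and -1.33 ± 0.35 (SE), in the order above, and only 1371643_at passed (limma adjusted p = 0.159, 0.0496 and 0.108), in a fit that passed 1.14% of all probe sets. Vehicle 5 weighed on that fit, having the widest GAPDH difference without the highest Ccnd1. With it left out as well, an alternative chosen after seeing the data, the differences were -0.34 ± 0.37, -0.95 ± 0.34 and -0.51 ± 0.33 and none passed (limma adjusted p = 0.925, 0.460 and 0.796), where 0.254% of all probe sets did. With the beta-actin measure they were -0.90 ± 0.19, -1.22 ± 0.20 and -0.90 ± 0.16, and all 3 passed (limma adjusted p = 0.0308, 0.00663 and 0.0137), where 2.42% of all probe sets did. The sign was negative in every one of these fits, while the size depended on the measure of RNA quality and on vehicle 5.

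**Figure D2:**
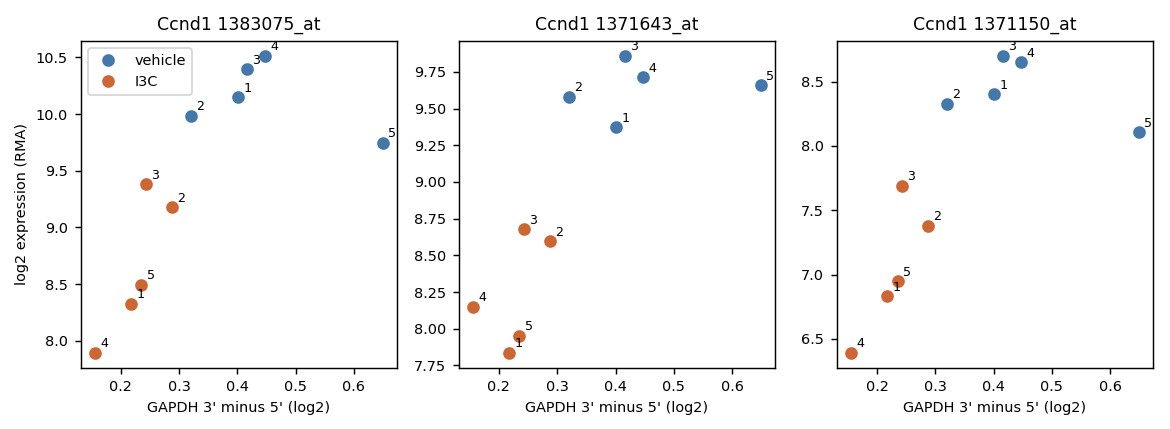
Log2 expression of the 3 Ccnd1 probe sets (vertical axes) against the GAPDH control's 3' signal minus its 5' signal (horizontal axis, log2) in 5 vehicle arrays (blue) and 5 dosed arrays (orange), numbered by replicate. The groups are separate on both axes, and vehicle 5 lies far to the right at 0.65 without a higher Ccnd1 level.

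Ccnd2 and Ccnd3, the other D cyclins, did not pass. Ccnd2 (1370810_at) read 8.89, 8.22, 8.94, 8.17 and 7.46 in vehicle arrays and 7.64, 7.81, 7.95, 6.75 and 7.77 in dosed arrays, and the groups overlapped because vehicle 5 lay below 4 of the dosed arrays. The difference was -0.75 ± 0.28 (SE, limma adjusted p = 0.182), with a 95% interval of -1.36 to -0.14. Without vehicle 5 it was -0.97 and passed (limma adjusted p = 0.0308, where 6.72% of all probe sets passed), and with array weights it was -0.86 and passed (limma adjusted p = 0.033, where 7.17% did). It was -1.16 ± 0.46 given the GAPDH measure, -0.17 ± 0.27 given the beta-actin measure, and -0.092 ± 0.43 given the GAPDH measure without vehicle 5. Ccnd3 (1369935_at) ran from 8.18 to 8.73 in vehicle arrays and from 8.08 to 8.25 in dosed arrays, a difference of -0.18 ± 0.10 (SE, limma adjusted p = 0.416, 95% interval -0.38 to 0.030). Given the GAPDH measure its sign turned (0.082 ± 0.13).

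Neither kinase passed. Cdk4 (1369950_at), a catalytic partner of the D cyclins, read 9.69, 9.88, 9.77, 9.75 and 10.01 in vehicle arrays and 9.83, 9.78, 9.64, 9.69 and 9.63 in dosed arrays. The difference was -0.11 ± 0.07 (SE, limma adjusted p = 0.560, 95% interval -0.27 to 0.052), and its sign turned given the GAPDH measure (0.022 ± 0.12). Cdk6 (1375757_at), the other partner, lay from 4.98 to 5.27 in vehicle and from 4.86 to 5.12 in dosed arrays, at the 28.7th percentile of all probe sets. It differed by -0.088 ± 0.08 (SE, limma adjusted p = 0.670, 95% interval -0.25 to 0.075), and its dim signal limits what this probe set can show.

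Cdk4 is a textbook target of MYC, which binds the E-box CACGTG, and both genes are members, so the stretch before the Cdk4 start is shown. RefSeq promoter windows on assembly GRCr8, from 250 bases before to 50 after the annotated start, were at hand for 6 of the 10 genes, and those of Ccnd1, Ccnd2, Cdk6 and Myc were not analysed here. The stretch at chr7:64771238-64771377 on the plus strand runs from 215 to 76 bases before the start, and the capitals mark the E-boxes.

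Cdk4 upstream: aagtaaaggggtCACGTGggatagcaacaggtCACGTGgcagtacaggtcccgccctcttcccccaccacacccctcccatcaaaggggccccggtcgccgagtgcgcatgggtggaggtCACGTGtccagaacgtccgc

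The Cdk4 window holds 3 copies of CACGTG, which begin 203, 183 and 95 bases before the start. Of all 33469 windows of the same length 6.42% hold this motif, which reads the same on both strands, and 0.0568% hold at least 3 copies. The cut of 3 copies is the number found in the Cdk4 window and was not planned. Among the 6 member windows 1 holds the E-box. TGACNNNGC, the core of the antioxidant response element, was found in 3 of them, those of Cdkn1a, Cdkn1b and Rb1, against 12.1% of all windows, both strands being read. GCGTG, the core of the xenobiotic response element, was found in 0 of 6 against 29.7%, and TTTCGCGC and TTTGGCGC, forms of the E2F site, in 0 of 6 against 0.326% and 0.493%. TGACTCA and TGACGTCA, known as the AP-1 site and the cyclic AMP response element, were in 0 of 6 against 4.63% and 1.83%. These are matches of letters within 300 bases.

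Myc itself, whose product is a growth-linked transcription factor, did not pass and had 1 high array in each group. Probe set 1368308_at read 7.47, 8.62, 7.48, 7.32 and 7.30 in vehicle arrays and 8.50, 7.42, 7.74, 7.10 and 6.89 in dosed arrays. Vehicle 2 and dosed 1 lay above the other 8 arrays, of which dosed 3 was the highest. The difference was -0.11 ± 0.30 (SE, limma adjusted p = 0.925), with a wide 95% interval of -0.77 to 0.55. The sign turned without vehicle 2 (0.14 ± 0.26) or dosed 5 (0.051 ± 0.30), and the value was -0.64 ± 0.48 with the GAPDH difference and -0.95 ± 0.66 with it and without vehicle 5.

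Among the CDK inhibitors that are members, Cdkn1a was the one to fall, on its brighter probe set. Cdkn1c, an inhibitor outside the members, fell as well and is given below. Cdkn1a, the inhibitor best known as a target of p53, read 9.18, 8.99, 9.24, 8.38 and 9.42 in vehicle arrays and 8.16, 7.90, 7.99, 8.77 and 8.42 in dosed arrays on 1388674_at. The groups overlapped because vehicle 4 lay below dosed 4 and dosed 5; the other vehicle arrays lay above all dosed ones. The difference was -0.80 ± 0.20 (SE, limma adjusted p = 0.0364), a 1.74-fold fall with a 95% interval of 1.29-fold to 2.34-fold.

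Unlike the 3 Ccnd1 calls, that call did not hold without each single array. It ended when any of vehicle 1, 2, 3 and 5 or of dosed 1, 2, 3 and 5 was dropped, at limma adjusted p from 0.0557 to 0.097 and differences from -0.84 to -0.70, and it held without vehicle 4 (where 3.79% of all probe sets passed) or dosed 4 (3.42%). Like 2 of the Ccnd1 calls, it also ended with the GAPDH difference in the model (-0.77 ± 0.34, limma adjusted p = 0.318). With the GAPDH difference and without vehicle 5 the size was -1.51 ± 0.34 (limma adjusted p = 0.135), and with the beta-actin difference it was -1.24 ± 0.17 and passed (limma adjusted p = 0.00265). The direction was the same in each.

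The dimmer Cdkn1a probe set, 1387391_at, read 6.25, 6.08, 6.02, 5.74 and 6.14 in vehicle arrays and 5.93, 5.70, 5.50, 6.23 and 5.81 in dosed arrays. It differed by -0.21 ± 0.13 (SE, limma adjusted p = 0.490), and it too had vehicle 4 and dosed 4 out of step with their groups. The per-array gap between both Cdkn1a probe sets shrank from 3.00 ± 0.26 (SD, n = 5) to 2.41 ± 0.19 (SD, n = 5), a change of -0.59 (exact permutation p = 0.00794, two-sided, adjusted p = 0.0397 over the 5 pairs). Cdkn1a was the 1 gene of 4 whose probe sets responded unequally by this test, and the adjusted p was 0.0794 without any 1 of the dosed arrays.

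Cdkn1b and Cdkn2c did not pass on any probe set. Cdkn1b, the inhibitor of quiescent cells, averaged 10.33 ± 0.27 on its brighter probe set, 1373812_at, in vehicle arrays, against 10.40 ± 0.09 with the dose (SD, n = 5 each). It differed by 0.076 ± 0.11 (SE, limma adjusted p = 0.843, 95% interval -0.17 to 0.32), and the sign turned without vehicle 5 (-0.0069 ± 0.10) and given the GAPDH measure (-0.20 ± 0.16). Its other probe set, 1369192_at, was the 1 of the 15 under the 25th percentile of all probe sets and differed by 0.047 ± 0.07 (SE, limma adjusted p = 0.85). Cdkn2c, the INK4 inhibitor among the members, differed by -0.13 ± 0.07 on 1370054_at (SE, limma adjusted p = 0.449, 95% interval -0.28 to 0.029). On 1378711_x_at, whose suffix marks probes that can bind other transcripts, it differed by 0.11 ± 0.08 (SE, limma adjusted p = 0.616, 95% interval -0.068 to 0.28). A difference in response between the probe sets was shown for neither gene (exact permutation adjusted p = 0.833 and 0.179, over the 5 pairs).

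Rb1, the pocket protein that the D cyclin kinases phosphorylate, came close to the threshold. Probe set 1388185_at read 6.84, 7.01, 7.01, 7.09 and 6.68 in vehicle arrays and 6.68, 6.51, 6.73, 6.64 and 6.56 in dosed arrays. Vehicle 5 was the 1 vehicle array within the range of the dosed ones. The difference was -0.30 ± 0.08 (SE, limma adjusted p = 0.0616, 95% interval -0.48 to -0.12). It passed without vehicle 5 (-0.36, limma adjusted p = 0.00919) and with array weights (-0.34, limma adjusted p = 0.0105), and it was -0.51 given the GAPDH measure (limma adjusted p = 0.0675). Given the beta-actin measure it was smaller, at -0.23 ± 0.11 (limma adjusted p = 0.344). With the GAPDH measure and without vehicle 5 it was -0.40 ± 0.15 (limma adjusted p = 0.498).

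**Figure D3:**
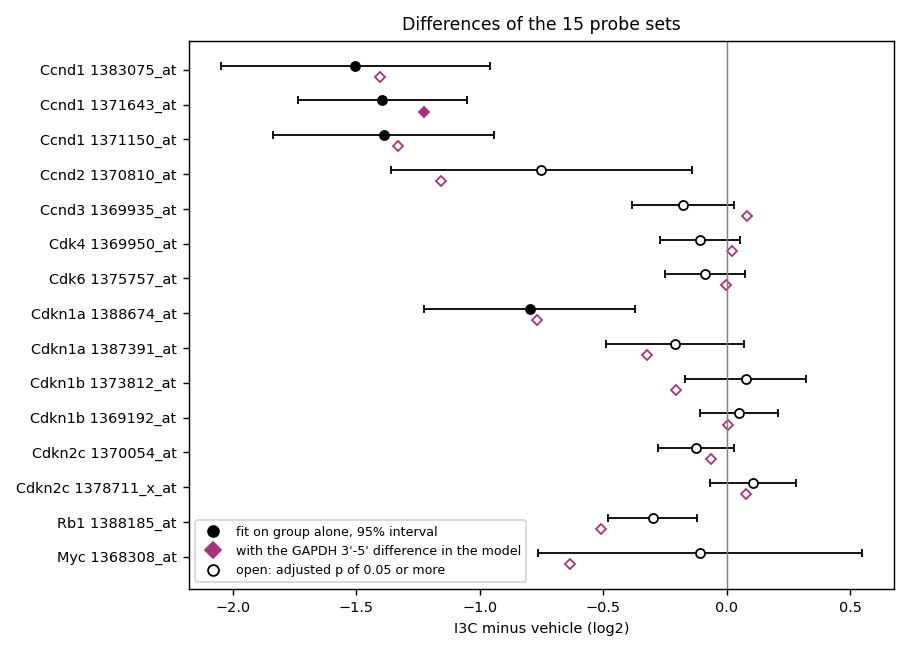
Difference between dosed and vehicle arrays (log2) for each of the 15 probe sets, as black circles with 95% intervals from the fit on group alone and as purple diamonds with the GAPDH 3' minus 5' difference in the model; filled symbols have an adjusted p under 0.05. Filled circles stand at the 3 Ccnd1 probe sets and 1 Cdkn1a probe set, and the 1 filled diamond is Ccnd1 1371643_at.

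Around these genes, 127 others of 7 lists of the same circuit were measured, each through its brightest probe set. Of these 11 rose and 3 fell, against 6.43% of all 14217 genes called through their brightest probe set, 3.32% higher and 3.11% lower. Among 29 further G1 regulators 1 rose and 2 fell (median -0.036, against -0.0039 over all genes). Rbl1 (-0.34) passed as well in at least 1 fit with 1 array left out (lowest limma adjusted p = 0.0115). Cks1b, a small subunit that helps the ubiquitin ligase of Cdkn1b, rose by 0.70 ± 0.11 (SE) on the brighter of 2 passing probe sets. Cdkn1c, the third CIP/KIP inhibitor, fell by 0.44 ± 0.09 and Btg1, an antiproliferative gene, by 0.33 ± 0.06, and both calls ended given the beta-actin measure (limma adjusted p = 0.123 and 0.0620). Cyclin E1 (Ccne1), which acts after the D cyclins, was 5.73 in vehicle and 5.74 in dosed arrays, and E2f1 was 5.80 and 5.84.

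Of 21 measured genes of DNA replication and mitosis, which follow E2F release, limma called 0 through the brightest probe set. At an unadjusted p under 0.05 there were 2, both lower, Ccnb2 (-0.22) and Bub1, against 2818 of all 14217 genes. The differences of the 21 ran from -0.22 to 0.15, with a median of -0.044. Pcna, the replication clamp, was 9.60 in vehicle and 9.75 in dosed arrays, and Mcm7, a helicase subunit, 8.36 and 8.22. Mki67, a marker of cycling cells named here after its value was seen, was dim at 4.54 and 4.33.

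Among 13 genes listed as MYC partners and antagonists 0 passed limma through the brightest probe set, with a median difference of -0.0055. At an unadjusted p under 0.05 there were also 0, against 2818 of all 14217 genes. Of the 13, Pias2 entered through the older symbol Miz1, beside Zbtb17, and may not belong there (-0.0049 ± 0.09). Max, the partner MYC needs to bind DNA, differed by 0.12 ± 0.11 (SE) and Mlx by 0.18 ± 0.10, although the other of its 2 probe sets passed. Of 15 known MYC targets 1 rose, Eif4e, the cap-binding translation factor, by 0.58 ± 0.08 on 1 of 3 probe sets. That count was 2 without vehicle 5 or dosed 3.

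Of 13 other p53 targets 3 rose and 0 fell, while Cdkn1a fell. Gadd45a, a stress gene of growth arrest, rose by 1.67 ± 0.17 (SE, limma adjusted p = 0.000157), a 3.18-fold rise. Ddb2, a sensor of damaged DNA, rose by 0.71 ± 0.07 on 1 of 2 probe sets, and Mdm2, the ligase that restrains p53, by 0.47 ± 0.09 on the brightest of 3 passing probe sets. All 3 kept their call with the GAPDH difference in the model, and 1 p53 target fell without vehicle 5.

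Of 20 mitogen receptors, ligands and immediate early genes 2 rose: Atf3, a stress-induced transcription factor, by 0.55 ± 0.11, and Jund by 0.33 ± 0.08 on 1 of 3 probe sets. The Atf3 call ended given the beta-actin measure (limma adjusted p = 0.158). The Jund call ended when any of dosed 1 to 4, vehicle 1 or vehicle 2 was dropped (limma adjusted p from 0.0689 to 0.0987), and 1 gene of this list fell without vehicle 5. Of 17 transcription factors known to act on the members 4 rose and 1 fell. Nr1i3, the nuclear receptor CAR, rose by 1.32 ± 0.20, Ahr, the receptor of I3C products, by 1.02 ± 0.13 on 1 of 2 probe sets, Atf4 by 0.75 ± 0.08 and Cebpb by 0.69 ± 0.08. Foxo3, which is known to drive Cdkn1b, fell by 0.45 ± 0.08 on 1 of 3 probe sets, and 2 genes of the list fell without vehicle 5.

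With the GAPDH difference in the model 5 of the 14 called list genes still passed: Gadd45a, Ddb2, Mdm2, Atf4 and Cebpb. In that fit 4 of the other called genes were over 1.5 times smaller, Cks1b (0.46), Eif4e (0.33), Ahr (0.65) and Foxo3 (-0.26). With the beta-actin measure 11 of the 14 still passed. With the GAPDH difference and without vehicle 5, limma called 0 of 127, with 19 at an unadjusted p under 0.05. Of all probe sets 0.254% passed there, and the unadjusted share over all genes was not counted. Of the list genes not called through their brightest probe set, 5 had another probe set that passed: Mlx, Tk1, Fas, Jun and Cebpa. The lists were chosen with earlier results of these data known, and no list was tested as a set.

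**Figure D4:**
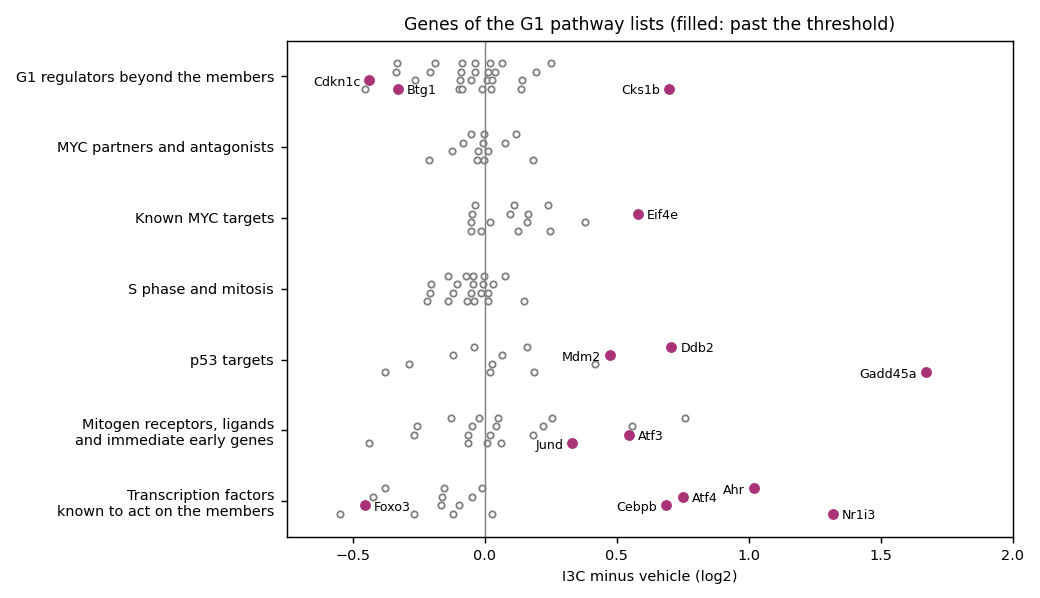
Difference between dosed and vehicle arrays (log2) for each measured gene of 7 lists around the G1 circuit, 1 point per gene through its brightest probe set; filled points have an adjusted p under 0.05 and are named. The S phase and mitosis genes cluster between -0.22 and 0.15, while Gadd45a at 1.67 and Nr1i3 at 1.32 lie farthest to the right.

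In bulk liver, fewer cells of a type and less RNA per cell cannot be told apart. The mean level of 7 hepatocyte markers per array ran from 14.23 to 14.29 in vehicle and from 14.23 to 14.31 in dosed arrays. These markers lie near the top of the scale (highest value 15.12), where a change can be hard to see. Of the hepatocyte markers 1 rose, Apoa1 (0.38 ± 0.07), a call that ended with the GAPDH or the beta-actin measure (limma adjusted p = 0.126 and 0.134). The mean of 7 Kupffer cell and macrophage markers ran from 9.31 to 9.70 and from 8.94 to 9.38. Of these 7, 1 fell, Cd5l (-0.52 ± 0.12), whose call ended when dosed 1, dosed 4, dosed 5, vehicle 1, vehicle 2 or vehicle 4 was dropped (limma adjusted p from 0.0515 to 0.0677) or either RNA quality measure was added (0.132 and 0.129). Of the 7, 6 had an unadjusted p under 0.05, against 2818 of all 14217 genes. Among the 6, Lyz2 was higher (0.41). Clec4f, the defining Kupffer marker, differed by -0.34 ± 0.10. The mean of 7 stellate cell markers ran from 7.77 to 8.01 and from 7.58 to 7.82, and Lrat fell (-0.51 ± 0.10), a call that also ended with either measure (limma adjusted p = 0.164 and 0.133). The mean of 6 endothelial markers ran from 9.27 to 9.55 and from 9.21 to 9.39. Of these, 0 were called by limma and 2 had an unadjusted p under 0.05. Adgre1 (macrophage, -0.50), Reln (stellate, -0.33) and Fcgr2b (endothelial, -0.27) passed in at least 1 fit with 1 array left out (lowest limma adjusted p = 0.0342, 0.0095 and 0.0156). Limma called 0 of 5 cholangiocyte, 0 of 8 lymphocyte, 0 of 3 neutrophil and 0 of 3 erythroid markers, of which 0, 1, 0 and 0 had an unadjusted p under 0.05. The part of these cell types in the fall of Ccnd1 was not tested.

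The genes whose levels ran most like those of Ccnd1 (1371643_at) over the 10 arrays, among 12192 genes at or above the 25th percentile, were Rnase4 (Pearson r = 0.968) and Mylk (r = 0.967). Both fell, by 0.40 ± 0.07 and 0.50 ± 0.06. For Cdkn1a (1388674_at) they were Tle3 (r = 0.939) and Ntf3 (r = 0.937), which fell by 0.34 ± 0.08 and 0.68 ± 0.13. These values reflect the separation of the groups as well as the spread within them. Once each group's mean was removed, the closest genes were Pdcd6ip (r = 0.954) and Mapkapk5 (r = 0.927) for Ccnd1, and Tcf3 (r = 0.965) and Ucn (r = 0.950) for Cdkn1a. None of these 4 passed the test between groups. The correlations describe 10 arrays and were picked as the highest of 12192.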

How the data were processed

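Liver RNA was measured on 10 rat whole-genome 3' arrays. The deposited values are the authors' log2 expression values, which the submitters' processing notes say were made with RMA, without a version. RMA (robust multi-array averaging) equalises the arrays' distributions and can compress folds. The values ran from 3.00 to 15.12, array medians from 6.21 to 6.29, and no array copied another (lowest SD of a pairwise difference 0.17). The number of arrays limits the precision.

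Gene names come from the platform annotation of 2016, with symbols updated by Entrez ID from RefSeq (GRCr8): of 31042 outside 57 controls, 20826 have 1 gene, 436 several and 9780 none here. No probe set was filtered. The group comparison used limma 3.58.1 (R 4.3.3, prior degrees of freedom 4.60), two-sided, Benjamini-Hochberg adjusted, threshold 0.05, and the fit was tested on simulated data. "Rose" and "fell" mean past it; ± is the SE unless SD is written. Probe sets of a gene were compared by exact permutation over 252 splits. Alternatives covered the variance model, normalization, dim probe sets, array weights, replicate numbers, RNA quality and single arrays.

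The members and lists were chosen with earlier results of these data known. Named genes are all members, from each list up to 4 by size among those passing (the 2 brightest where fewer than 2 passed), and the closest genes by correlation. Exceptions chosen after their values were seen are Mki67, Ccne1, E2f1, Ccnb2, Bub1, Foxo3, Lyz2, Tk1, Fas, Jun, Cebpa, Pias2, Zbtb17, Rbl1, Adgre1, Reln and Fcgr2b.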

Additional observations from a re-analysis of the deposited data

Results flagged for a closer look

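Of 30 groups of 5 values (15 probe sets in vehicle and in dosed arrays), 2 held an array far from the other 4, where chance alone marks about 1 group in 20. For Myc, vehicle 2 read 8.62 while the other vehicle arrays lay between 7.30 and 7.48, and the gap to the nearest was 0.863 of the group's range. For Ccnd2, dosed 4 read 6.75 while the other dosed arrays lay between 7.64 and 7.95, and the gap was 0.748 of the range. The critical value for 5 samples is 0.71.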

How the results depend on the processing

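The 3 Ccnd1 probe sets kept their sign under all 22 alternatives and lost calls only with the GAPDH difference in the model. Member probe sets past the threshold numbered 4, against 1 with the GAPDH difference, 0 with it and without vehicle 5 (4 at an unadjusted p under 0.05 in limma) and 0 with the replicate block and the GAPDH difference (5 at an unadjusted p under 0.05), and 3 to 5 with 1 array left out. Member genes past it numbered 2, against 1, 0 and 0 in these fits, 4 with array weights, 1 without moderation, with renewed quantile normalization, with the replicate block or at a threshold of 0.01, and 1 to 3 with 1 array left out. List genes past it numbered 14, against 5, 0 and 0 in the 3 GAPDH fits (35, 19 and 19 at an unadjusted p under 0.05) and 13 to 19 with 1 array left out. Of all probe sets 4.79% passed in the fit on group alone, 1.14% with the GAPDH difference and 0.254% with it and without vehicle 5. With the replicate block and the GAPDH difference this share was not counted, so a 0 there cannot be read as particular to these genes. Unadjusted shares over all features were not counted in the 3 GAPDH fits.

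With the replicate block and the GAPDH difference together, Ccnd1 differed by -1.04 (1383075_at), -0.98 (1371643_at) and -1.09 (1371150_at), Cdkn1a by -1.15, Cdk4 by 0.046 and Cdkn1b by -0.19 and -0.010. With the GAPDH difference alone the values were -1.41 and -1.33 for the Ccnd1 probe sets that lost their call, -0.77 for Cdkn1a, 0.082 for Ccnd3, 0.022 for Cdk4 and -0.20 for Cdkn1b. With it and without vehicle 5 they were -0.34, -0.95 and -0.51 for Ccnd1, -1.51 for Cdkn1a and -0.049 for Cdkn1b. Cdkn1a lost its call at -0.80 without moderation (adjusted p = 0.144) and with the replicate block (adjusted p = 0.0958), at -0.79 with quantile normalization (adjusted p = 0.06), and lay from -0.96 to -0.70 with 1 array left out. Leaving out 1 array turned the signs of Cdkn1b 1373812_at (-0.0069 to 0.15) and Myc (-0.35 to 0.14), and of the gaps between probe sets of Cdkn1b (-0.042 to 0.11) and Ccnd1 (-0.22 to 0.059). Unequal probe sets numbered 1, and 0 to 1 with 1 array left out. The cause of a lost call was not tested.

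The replicate numbers of the titles did not pair the arrays: deviations of same-numbered arrays correlated at -0.28 to 0.22, and for 2 of 5 numbers the best match was the own number. Signal over background limits Cdk6 and Cdkn1b 1369192_at, which are dim.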
